A study of Mus musculus with 12 samples.

Results

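Neurofilament and neuronal microtubule genes were followed through mouse cortical neuronal cultures that were exposed to interferon-gamma. The set held 10 genes chosen by name: Nefl, Nefm, Nefh, Ina, Dcx, Stmn1, Stmn2, Tubb3, Map2 and Mapt. All 10 were found among the 43629 gene identifiers of the count table, and all 10 passed the filter on low counts that left 15241 genes for testing. RNA was sequenced from 6 cultures labelled IFNG and 6 labelled Control. In the IFNG group a lentivirus delivered at 7 days in vitro drove Ifng, the gene of interferon-gamma, and cells were collected 10 days later. The labels attach the same protocol text to the Control samples and name no control construct, so what those cultures received is not known. The promoter of the construct, the mouse strain and age, and the source animals of the 6 cultures per group were not given in the sources used here. A p-value therefore speaks only of the scatter among these samples, and that scatter may be technical.

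Neurofilaments are the intermediate filaments of neurons. The light, medium and heavy chains (Nefl, Nefm and Nefh) and alpha-internexin (Ina) assemble together, fill large axons and set their calibre, and alpha-internexin appears earlier in development than the heavy chain. Neuronal microtubules are built from tubulin that includes the neuron-specific beta-tubulin III (Tubb3), are stabilised by Map2 in dendrites and by tau (Mapt) in axons, and are bound by doublecortin (Dcx) in migrating and newly differentiated neurons. The stathmins Stmn1 and Stmn2 bind free tubulin and favour microtubule disassembly, and Stmn2 is known for its place in growth cones and in axon regrowth.

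Libraries held 14408343 to 20299507 counts in the Control group and 13875435 to 34239380 in the IFNG group. Ifng itself had 0 to 3 counts in the Control libraries and 92 to 421 in the IFNG libraries. The cultures were not neurons alone: all 16 of 16 tested astrocyte markers were higher in IFNG (18 were listed; Gjb6 and S100b were too low to test, and none was at 0 in every library), and their summed level was 3411 to 3943 CPM (counts scaled to a common library total) in Control and 5861 to 10150 in IFNG libraries. A reference list of 22 pan-neuronal genes that excludes the 10 members summed to 11583 ± 440 CPM in Control and 9967 ± 305 in IFNG (SD, n = 6 each), with ranges that did not overlap. In bulk RNA, fewer cells of a type and less RNA per cell cannot be told apart. In IFNG 5, genes were out of line by length: the 20% of genes with the longest exons (at least 8345 bases) lay 0.55 log2 units below the 20% with the shortest (at most 2892 bases), counted as medians of deviations from the group means, where the other 11 libraries lay between -0.17 and 0.17. Dcx and Map2 are among the long genes, Stmn1 and Tubb3 among the short, and the changes of these 4 genes, and the ratios in which IFNG 5 stood apart, are also given without it.

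Promoter sequence is shown for the 4 members whose start sites were in the RefSeq table used here (Dcx, Ina, Map2 and Tubb3, build GRCm38.p6), because they span the response described below, from the member that fell most to members that did not pass the test. Each is printed 5′ to 3′ on the gene's own strand. The stretch stops where the first annotated exon begins, or just before the RefSeq start site where that comes first, as in Ina. Capitals mark the interferon regulatory factor core AANNGAAA in Dcx and the E-box CAGCTG in Ina.
Dcx: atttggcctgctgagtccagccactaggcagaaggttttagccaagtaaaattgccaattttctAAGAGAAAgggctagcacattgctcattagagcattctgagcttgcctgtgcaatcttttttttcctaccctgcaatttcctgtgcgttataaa
Ina: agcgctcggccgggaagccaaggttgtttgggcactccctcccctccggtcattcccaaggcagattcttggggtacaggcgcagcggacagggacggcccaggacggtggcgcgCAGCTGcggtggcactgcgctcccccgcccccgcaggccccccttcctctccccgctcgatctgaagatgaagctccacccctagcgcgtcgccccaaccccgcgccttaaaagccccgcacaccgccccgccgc
Map2: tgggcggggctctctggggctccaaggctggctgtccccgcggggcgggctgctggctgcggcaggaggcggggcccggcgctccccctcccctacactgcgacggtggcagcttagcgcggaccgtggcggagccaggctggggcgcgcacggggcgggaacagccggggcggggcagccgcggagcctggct
Tubb3: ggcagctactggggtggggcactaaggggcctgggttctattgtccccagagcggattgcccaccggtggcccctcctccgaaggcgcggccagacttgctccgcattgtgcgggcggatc
The Dcx stretch is chrX:143933312-143933469 on the minus strand, the Ina stretch chr19:47014431-47014680, the Map2 stretch chr1:66175079-66175272 and the Tubb3 stretch chr8:123411303-123411423, the last 3 on the plus strand. Full windows of 300 bases (250 before and 50 after the start site) were searched on both strands for 3 motifs. The gamma-interferon-activated site TTCNNNGAA was in none of the 5 windows of these genes (Dcx has 2 start sites) and in 8.30% of all 32851 windows of the table. The core AANNGAAA occurred in both Dcx windows and in the Map2 window, against 23.9% of all windows, and an E-box of the form CAGCTG or CATCTG occurred in the Ina window, against 30.6%. The 2 Dcx windows overlap each other, and the match in the Map2 window lies outside the stretch printed above. The windows of Ina, Map2 and Tubb3 had a GC content of 71.7, 77.7 and 67.3%, and the 2 Dcx windows 43 and 44.7%, beside a median of 52.7% over all windows. A match is a description of these letters and does not show that a factor binds there.

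Of the 10 genes, 5 fell in IFNG cultures and none rose: Dcx, Stmn1, Ina, Stmn2 and Mapt. The falls were moderate, from 43.8% lower for Dcx to 17.96% lower for Mapt. The other 5 did not pass the test, and these included the 3 classical neurofilament chains, of which Nefl was lower and Nefm and Nefh were higher in the mean. The median log2 fold change of the members was -0.28, where the median of all tested genes was -0.02. In the comparison as a whole 9.79% of tested genes were lower and 14.3% were higher (edgeR's quasi-likelihood test, Benjamini-Hochberg adjusted p under 0.05 over 15241 genes, the rule used for all fold changes here). For 4 of the 5 that fell (Dcx, Stmn1, Ina and Mapt) every IFNG library was below every Control library, which held for 4.09% of all tested genes, and a complete separation upward held for 8.75% of all genes and for no member. When only changes significantly beyond 1.2-fold were counted, 2 members remained lower, Dcx and Stmn1, against 3.01% of all genes.

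**Figure D1:**
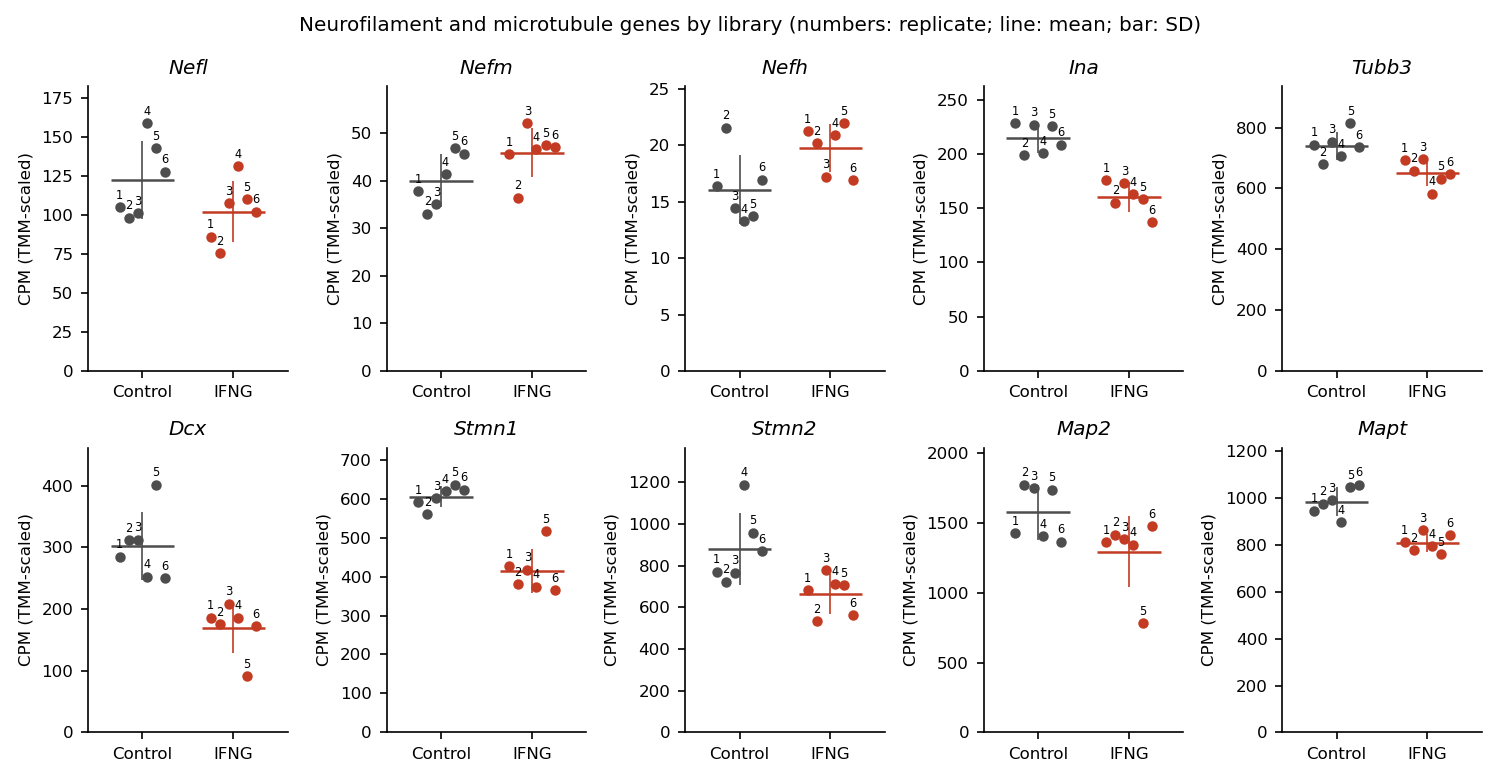
Level of each member in each of the 12 libraries, in CPM, with 1 panel for each gene; points are libraries with their replicate number, the line is the group mean and the bar its SD (n = 6 each). Dcx, Stmn1, Ina and Mapt show no overlap between groups, and IFNG 5 is the lowest IFNG point for Dcx (91.3 CPM) and Map2 (782 CPM).

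**Figure D2:**
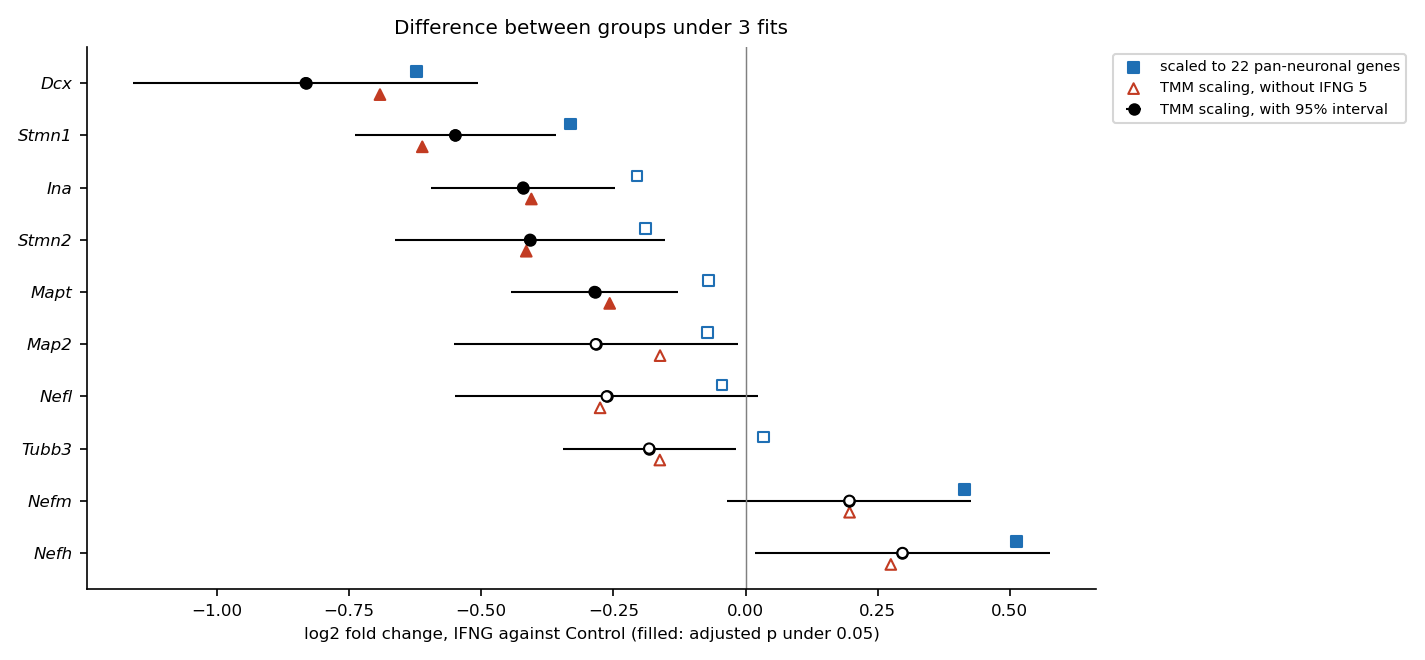
Log2 fold change (IFNG over Control) of the 10 members: circles with 95% confidence intervals under TMM scaling, squares under totals over the 22 pan-neuronal genes, triangles under TMM scaling without IFNG 5; filled symbols passed the test. Under the pan-neuronal scaling Dcx and Stmn1 stay below 0 (-0.62 and -0.33), and Nefm and Nefh lie above it (0.41 and 0.51).

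Per kilobase of annotated exon, the members spanned a wide range of levels and kept 1 order in both groups. In Control cultures Tubb3 was highest at 396 ± 24.4 CPM per kilobase, followed by Stmn1 (315 ± 14.1), Stmn2 (157 ± 31.0), Mapt (131 ± 8.02), Map2 (95.8 ± 11.9), Ina (66.3 ± 4.24), Nefl (36.3 ± 7.40), Dcx (23.9 ± 4.41), Nefm (6.91 ± 0.97) and Nefh (4.02 ± 0.77; SD, n = 6 for each). Only Stmn2 with Mapt and Nefl with Dcx had overlapping ranges among neighbours in this order in Control. In IFNG cultures the means per kilobase ran from 349 for Tubb3 to 4.94 for Nefh in the same order, and the overlapping neighbours were Stmn2 with Mapt, Map2 with Ina, and Dcx with Nefm. Dcx thus lay apart from Nefm in Control (means of 23.9 against 6.91 CPM per kilobase). In IFNG (13.4 against 7.93) Dcx overlapped Nefm only through IFNG 5, the library in which long genes read low. There Dcx was at 7.22 CPM per kilobase. The overlap of Map2 with Ina also rested on IFNG 5 alone, where Map2 was at 47.5 CPM per kilobase. In every other IFNG library Dcx lay above the IFNG range of Nefm, and Map2 above that of Ina. Exon length was taken from GENCODE M21 over all isoforms, which lowers the value of genes with long alternative ends such as Dcx and Map2.

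Dcx (ENSMUSG00000031285, GRCm38 X:143855842-143933311, minus strand), which encodes the microtubule-binding protein of migrating and young neurons, fell most. Its level in Control libraries was 250.3 CPM at the lowest, 298 at the median and 402 at the highest. In IFNG libraries the lowest was 91.3, the median 181 and the highest 209. All 6 IFNG libraries were below all 6 Control libraries, and IFNG 5 stood below the other 5, which lay between 172 and 209 CPM. The means were 302 ± 55.8 and 169.9 ± 40.6 CPM (SD, n = 6 each), a log2 fold change of -0.83 ± 0.16 (SE; 95% interval -1.16 to -0.51, edgeR adjusted p = 0.000485). Without IFNG 5 the change was -0.69 with an adjusted p of 6.48e-05. With each library's trend on exon length removed it was -0.78, and under that correction 10.2% of all genes were lower.

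Stmn1 (ENSMUSG00000028832, GRCm38 4:134468320-134473843, plus strand) encodes stathmin, the widely expressed tubulin-binding protein that is abundant in developing neurons and in dividing cells. Control libraries held 560.2 CPM at the lowest, 610.3 at the median and 636 at the highest. The IFNG libraries held 365, 399 and 517 CPM. The groups did not overlap, and the highest IFNG value was that of IFNG 5, the library in which short genes read high. The mean moved from 605 ± 27.1 to 414 ± 56.6 CPM (SD, n = 6 each), and the log2 fold change was -0.55 ± 0.091 (SE; 95% interval -0.74 to -0.36, edgeR adjusted p = 0.000125). Without IFNG 5 it was -0.61. Of the markers of progenitors and dividing cells, 2 of 10 tested were lower (Pcna, -0.34, and Mki67, -0.61). Another 2 were higher (Sox2, 1.05, and Pax6, 1.11). Cdk1 (-0.45), Birc5 (-0.34), Ccnb1 (-0.26) and Tpx2 (-0.12) were negative, Top2a (0.12) and Hes5 (0.06) positive, and none of these passed. The summed level of the list was 196.7 to 288 CPM in Control and 256 to 339 in IFNG. That sum holds the rises of Sox2 (means of 61.002 and 126 CPM) and Pax6 (18.7 and 40.3). It therefore does not show a rise of the markers that were lower. The part of these markers in the fall of Stmn1 was not tested.

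Stmn2 (ENSMUSG00000027500, GRCm38 3:8509360-8561606, plus strand), the neuron-specific stathmin of growth cones, also fell, with a wider spread. Control libraries held 724 CPM at the lowest, 821 at the median and 1189 at the highest, the last in Control 4. IFNG libraries held 534, 696 and 779 CPM, and 5 of the 6 were below the lowest Control library. The means were 880.1 ± 174 and 664 ± 94.9 CPM (SD, n = 6 each), a log2 fold change of -0.41 ± 0.12 (SE; 95% interval -0.66 to -0.15, edgeR adjusted p = 0.0192). This call rested on single libraries: without Control 4 the change was -0.29 (adjusted p = 0.0629), without IFNG 2 -0.35 (0.0633), without IFNG 6 -0.36 (0.0571), and without Control 5 -0.37 (0.05003).

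Ina (ENSMUSG00000034336, GRCm38 19:47014698-47025327, plus strand) was the member of the neurofilament family that fell. Alpha-internexin was measured at 198.7 CPM at the lowest, 217 at the median and 228 at the highest in Control libraries. In IFNG libraries it was 137, 161 and 176 CPM, so the highest IFNG value was below the lowest Control value. The means were 215 ± 13.7 and 160.4 ± 14.0 CPM (SD, n = 6 each), with a log2 fold change of -0.42 ± 0.083 (SE; 95% interval -0.59 to -0.25, edgeR adjusted p = 0.000805). It shares 456 bases of exon with Nt5c2 on the other strand, and the strand setting of the counting is not given in the sources used here, so reads from that stretch cannot be assigned.

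The 3 neurofilament chains did not pass the test. Nefl (ENSMUSG00000022055, GRCm38 14:68083863-68089095, plus strand), the light chain on which the others assemble, had 98.4 CPM at the lowest, 117 at the median and 159 at the highest in Control libraries, and 75.7, 105 and 131 CPM in IFNG libraries. The ranges overlapped widely, Control 4 was the highest of all 12, and 2 IFNG libraries were below every Control library. Its log2 fold change was -0.26 ± 0.14 (SE; 95% interval -0.55 to 0.02, edgeR adjusted p = 0.183), and without Control 4 it was -0.16 (adjusted p = 0.423).

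Nefm (ENSMUSG00000022054, GRCm38 14:68082590-68124846, minus strand), the medium chain, had 33.0 CPM at the lowest, 39.6 at the median and 46.8 at the highest in Control libraries. IFNG libraries had 36.4, 46.8 and 52.1 CPM, with 5 of 6 above the Control median, and the ranges overlapped. The log2 fold change was 0.20 ± 0.11 (SE; 95% interval -0.03 to 0.43, edgeR adjusted p = 0.218).

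Nefh (ENSMUSG00000020396, GRCm38 11:4938754-4948064, minus strand), the heavy chain that is the last to appear in maturing axons, was the least abundant member. It had 13.3 CPM at the lowest, 15.4 at the median and 21.6 at the highest in Control libraries, the last in Control 2, and 16.9, 20.5 and 21.96 CPM in IFNG libraries. Control 2 lay among the IFNG libraries, Control 6 just above the lowest of them, and the other Control libraries below them all. The log2 fold change was 0.30 ± 0.13 (SE; 95% interval 0.02 to 0.58, edgeR adjusted p = 0.118), and without Control 2 it was 0.40 with an adjusted p of 0.0311.

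Nefl and Nefm are neighbours on chromosome 14 in opposite directions, and the annotation holds a long Nefm isoform that runs across Nefl, so that 1108 bases of exon are shared on opposite strands. Reads from that stretch may have gone to either gene, to both or to neither, since the counting method is not given in the sources used here. Divided by the exon outside the shared stretch alone (2272 bases in Nefl, 4674 in Nefm), the Control levels were 53.9 ± 11.0 CPM per kilobase for Nefl and 8.55 ± 1.202 for Nefm, and the IFNG levels 45.002 ± 8.59 and 9.81 ± 1.10 (SD, n = 6 each). On either denominator Nefl was the more abundant of the pair in every group mean. Nefh shares no exon with either. Its ratio to Nefl is also given below, and the shared stretch still enters that ratio through the Nefl counts.

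Among the markers of the differentiated neuron, Mapt fell and Tubb3 and Map2 did not pass the test. Mapt (ENSMUSG00000018411, GRCm38 11:104231390-104332090, plus strand), the gene of tau, had 898 CPM at the lowest, 984 at the median and 1058 at the highest in Control libraries. IFNG libraries had 760.1, 805 and 864 CPM, all below the Control range. The means were 986 ± 60.4 and 809 ± 39.0 CPM (SD, n = 6 each), with a log2 fold change of -0.29 ± 0.076 (SE; 95% interval -0.44 to -0.13, edgeR adjusted p = 0.00884). The change was small beside that of Dcx but the libraries were tight. Without a filter on low counts, which raised the number of genes tested to 27932, Mapt was -0.26 with an adjusted p of 0.0842.

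Tubb3 (ENSMUSG00000062380, GRCm38 8:123411424-123422015, plus strand), the neuronal beta-tubulin, had 680.1 CPM at the lowest, 740 at the median and 814 at the highest in Control libraries. In IFNG libraries it had 582, 652 and 696 CPM. The ranges overlapped, with 2 IFNG libraries above the lowest Control library, and the log2 fold change was -0.18 ± 0.078 (SE; 95% interval -0.35 to -0.02, edgeR adjusted p = 0.1004). Without IFNG 5 it was -0.16 (adjusted p = 0.148).

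Map2 (ENSMUSG00000015222, GRCm38 1:66175273-66442583, plus strand), the dendritic microtubule-associated protein, was the most abundant member in CPM. Control libraries had 1365 at the lowest, 1581 at the median and 1773 at the highest, and IFNG libraries had 782, 1373 and 1478. IFNG 5 was far below the other IFNG libraries, which lay between 1343 and 1478 CPM and overlapped the Control range. The log2 fold change was -0.28 ± 0.13 (SE; 95% interval -0.55 to -0.01, edgeR adjusted p = 0.121), and without IFNG 5 it was -0.16 (adjusted p = 0.198). With the length trend removed in each library the change was -0.22 and passed the test (adjusted p = 0.0383).

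**Figure D3:**
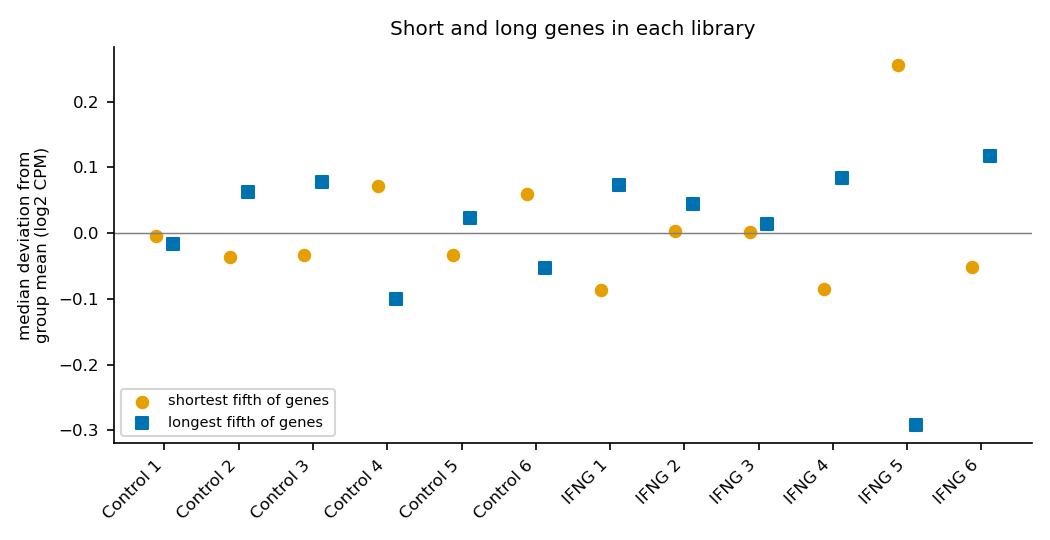
Median deviation from the group mean (log2 CPM) of the 20% of genes with the shortest and the 20% with the longest exonic length, for each of the 12 libraries. IFNG 5 reads short genes 0.26 above and long genes 0.29 below its group, and no other library departs by more than 0.12.

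Ratios of 2 members within a library do not depend on how libraries are scaled to each other. There were 8 such ratios, and for each the labels of the 12 libraries were permuted exactly (two-sided), a test whose smallest possible p is 0.00216, with Benjamini-Hochberg adjustment over the 8. The ratio of 2 genes' reads is not a ratio of transcripts, since exon lengths differ, and only its difference between groups is read here.

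Dcx fell relative to Map2. The log2 ratio Dcx/Map2 lay between -2.51 and -2.11 in Control libraries and between -3.10 and -2.73 in IFNG libraries, with no overlap. The means were -2.39 ± 0.15 and -2.94 ± 0.15 (SD, n = 6 each), a difference of -0.55 (exact permutation p = 0.00216, the smallest possible, adjusted p = 0.0173). IFNG 5, in which both genes were low, was at -3.10 and next to IFNG 6. Leaving out any single library gave differences from -0.60 to -0.50, each past the threshold.

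Nefm rose relative to Nefl. The log2 ratio Nefm/Nefl was between -1.94 and -1.48 in Control libraries and between -1.50 and -0.92 in IFNG libraries, so that only IFNG 4 reached into the Control range. The means were -1.60 ± 0.17 and -1.14 ± 0.20 (SD, n = 6 each), a difference of 0.46 (exact permutation p = 0.00649, adjusted p = 0.0260). The adjusted p was 0.0519 without any 1 of Control 3, Control 5, IFNG 1, IFNG 2, IFNG 3, IFNG 5 or IFNG 6. Nefh/Nefl, which the shared exon enters through Nefl alone, differed by 0.57 in the same direction, from -2.93 ± 0.50 to -2.36 ± 0.33 (SD, n = 6 each). It did not pass after adjustment (exact permutation p = 0.0411, adjusted p = 0.110). Without Control 2 the Nefh/Nefl difference was 0.72 (adjusted p = 0.0173).

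The other 5 ratios did not pass. Dcx/Stmn2 differed by -0.46 (exact permutation p = 0.0974, adjusted p = 0.195), and by -0.60 without Control 4 (adjusted p = 0.0346), the Control library with the most Stmn2. Without IFNG 5, which lay at -2.95 where the other IFNG libraries lay between -1.94 and -1.61, it differed by -0.27 (adjusted p = 0.312). Stmn1/Stmn2 differed by -0.16 (exact permutation p = 0.219), and by -0.24 without Control 4. Ina/Nefl also differed by -0.16 (exact permutation p = 0.366), with values from -0.26 without Control 4 to -0.092 without IFNG 4. Tubb3/Map2 differed by 0.12 (exact permutation p = 0.545) and Mapt/Map2 by 0.02 (exact permutation p = 0.898). In both ratios to Map2, IFNG 5 lay far above the other IFNG libraries, at -0.31 for Tubb3/Map2 where the others lay between -1.21 and -0.98, and at -0.04 for Mapt/Map2 where they lay between -0.86 and -0.68. Without IFNG 5 the differences were -0.0097 for Tubb3/Map2 and -0.10 for Mapt/Map2, both with the sign turned.

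**Figure D4:**
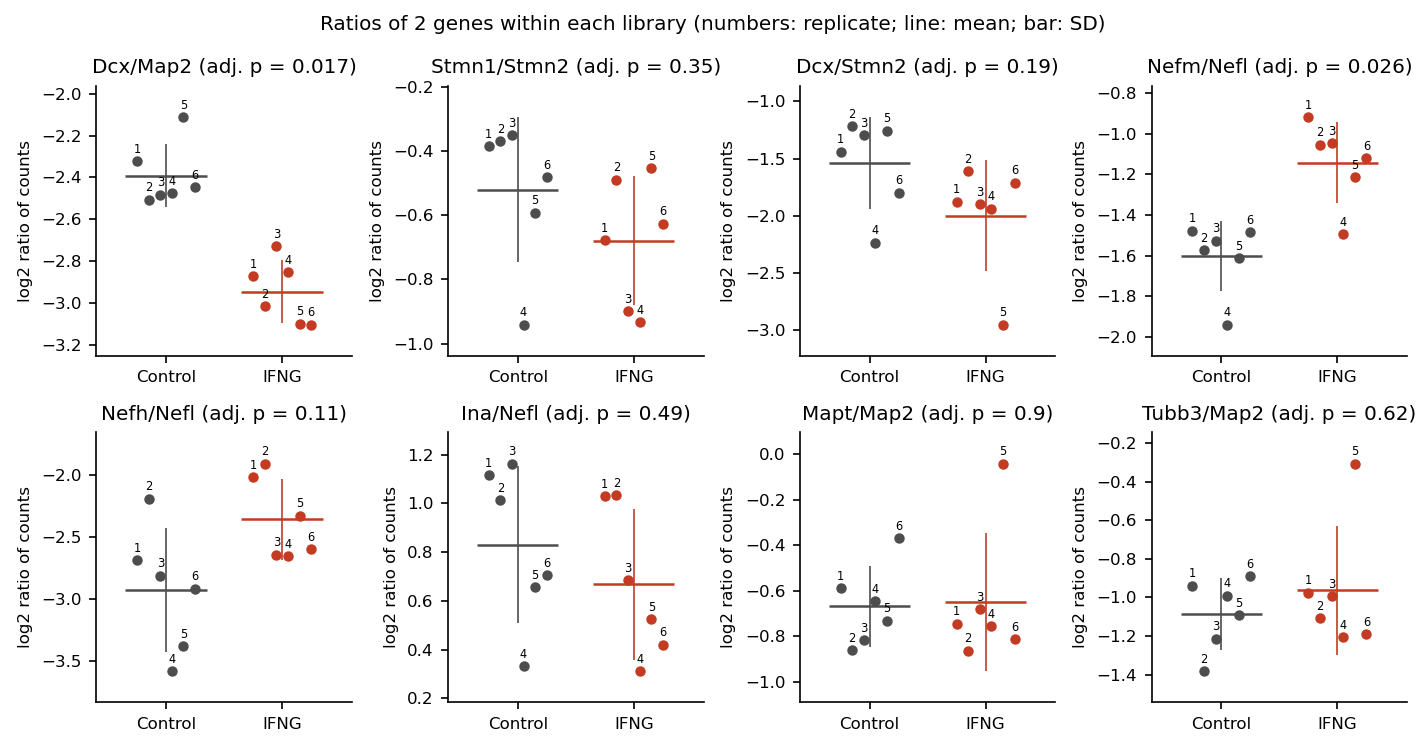
Within-library log2 ratios of member counts, each point a library with its replicate number, in Control and IFNG groups (n = 6 each), with group means and SD. Dcx/Map2 separates the groups, Nefm/Nefl separates all but IFNG 4, and the ratios to Map2 show IFNG 5 apart from its group.

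Since neuronal genes made up a smaller share of the RNA in IFNG libraries, the members were also set against the 22 pan-neuronal genes in place of the TMM totals. On that scale the median of all tested genes moved to 0.20, and 2.73% of tested genes were lower and 28.1% higher. Dcx was still lower at -0.62 (edgeR adjusted p = 0.00504) and Stmn1 at -0.33 (adjusted p = 0.00949), so both fell by more than the neuronal reference. Ina was -0.21 (adjusted p = 0.0876), Stmn2 -0.19 (adjusted p = 0.223), Mapt -0.07 (adjusted p = 0.529), Map2 -0.07 (adjusted p = 0.726), Nefl -0.04 (adjusted p = 0.826) and Tubb3 0.03 (adjusted p = 0.791), none of which passed. Nefm was higher at 0.41 (adjusted p = 0.00425) and Nefh at 0.51 (adjusted p = 0.00985). When the library totals were instead taken without the genes that rose, 4.92% of tested genes were lower and 19.4% higher. Dcx, Stmn1 and Ina were then lower, Nefm (0.31, adjusted p = 0.0452) and Nefh (0.41, adjusted p = 0.0350) higher, and Stmn2 (-0.29, adjusted p = 0.0841) and Mapt (-0.18, adjusted p = 0.101) did not pass. The fall of Dcx and Stmn1 therefore held under each of these 3 scalings, and whether Nefm and Nefh were called higher depended on the scaling.

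The wider machinery was read from 10 lists of related genes, none of them holding a member. Of 161 tested genes on these lists, 54 were lower and 11 higher, with a median log2 fold change of -0.20. These counts stand beside 9.79 and 14.3% of all tested genes. Under the pan-neuronal scaling 9 of the listed genes were lower and 26 higher; the pan-neuronal reference is itself 1 of the 10 lists.

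Of the 5 closest relatives of Dcx and the stathmins, all tested, 4 were lower: Stmn4 (243.6 ± 29.7 to 141.9 ± 30.2 CPM, log2 fold change -0.78 ± 0.13, edgeR adjusted p = 9.25e-05), Stmn3 (-0.37), Dclk1 (-0.40) and Dclk3 (-0.70). Stmn4 stayed lower under the pan-neuronal scaling at -0.56. Dclk2, a doublecortin-like kinase, went the other way and rose from 159 ± 15.6 to 244 ± 22.8 CPM, a log2 fold change of 0.62 ± 0.091 (SE, n = 6 each, edgeR adjusted p = 3.08e-05). The lowest IFNG library held 206 CPM of Dclk2 and the highest Control library 177.

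Genes of the growing axon and growth cone were lower in 12 of 20 cases and higher in none, with a median of -0.30. Marcksl1, a membrane-bound regulator of actin, fell from 573 ± 27.1 to 378 ± 40.3 CPM (log2 fold change -0.60 ± 0.085, edgeR adjusted p = 2.1e-05), and its ranges did not overlap. Dpysl3, a collapsin response mediator that binds tubulin, fell by 0.48 and Marcks by 0.39 on the log2 scale, while the abundant adhesion gene Ncam1 was -0.16 (adjusted p = 0.199). Under the pan-neuronal scaling Marcksl1 (-0.38) and Dpysl3 (-0.26) were still lower and Marcks (-0.17) did not pass.

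Of 13 tested tubulins only Tubb4a was lower (-0.27, edgeR adjusted p = 0.0128), and 3 were higher: Tuba8 (1.16, at 2.25 to 5.08 CPM), Tubb2b (0.30, at 1153 to 1419 CPM) and Tubb4b (0.27). Their median was 0.02. Tuba1a, the main alpha-tubulin of developing neurons, was -0.01 with a 95% interval of -0.24 to 0.22 and turned to 0.21 under the pan-neuronal scaling, passing under neither. Tubulin genes are near-identical over long stretches, so reads may be split among them in ways the files do not show.

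Among 25 other microtubule-associated proteins 6 were lower and none higher, led by Map9 (-0.64), the end-binding protein Mapre2 (-0.53) and Map7d2 (-0.48), and the most abundant, Map1b, was -0.24 (edgeR adjusted p = 0.303). Enzymes that modify or sever tubulin moved both ways: 8 of 22 tested were lower, among them the tubulin tyrosine ligase Ttl (-0.37), and 3 were higher. Katna1, the catalytic subunit of katanin, rose from 9.83 ± 1.48 to 22.5 ± 5.70 CPM (log2 fold change 1.198 ± 0.17, edgeR adjusted p = 1.68e-05). Fignl2, a relative of the severing enzyme fidgetin, rose from 0.49 ± 0.36 to 4.03 ± 1.16 CPM (2.997 ± 0.47), a low level in both groups. The deacetylase Sirt2 rose by 0.31 on the log2 scale, and the tubulin acetyltransferase Atat1 was -0.21 (adjusted p = 0.0765).

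Kinesin, dynein and dynactin genes, listed for axonal transport, were lower in 7 of 21 cases and higher in none. The smallest p-values were those of Kif3a (-0.44), the kinesin Kif2a (-0.47) and the dynein light intermediate chain Dync1li2 (-0.35). Kif1a, the most abundant that did not pass, was 0.09. Kinases that act on tau and neurofilaments were lower in 4 of 16 cases and higher in none: Mark1 (-0.38), Mapk8 (-0.49), Gsk3b (-0.44) and Cdk5r1 (-0.34), an activator of Cdk5, whose second activator Cdk5r2 was -0.14 (edgeR adjusted p = 0.338). Under the pan-neuronal scaling Kif3a, Kif2a, Dync1li2, Mark1, Mapk8 and Gsk3b were between -0.28 and -0.14 and did not pass, and Kif1a was higher, at 0.30 (adjusted p = 0.0461). None of the 9 genes of the axon initial segment and the spectrin lattice passed in either direction by edgeR's test, and their median was -0.16, with Sptan1 at -0.16 (adjusted p = 0.186).

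Of the pan-neuronal reference genes 11 of 22 were lower, among them Scg2 (-0.94), Elavl2 (-0.64) and Syn1 (-0.42), and none was higher. The median of this list, -0.30, was close to the median of the members.

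Intermediate filaments outside the neurofilament set included 4 that rose. Of 8 tested, Vim, Gfap, Prph and Nes were higher and the lamin Lmnb1 was lower, with a median of 0.45. Vim, the vimentin of glia and progenitors, rose from 184 ± 21.4 to 627 ± 135 CPM, a log2 fold change of 1.77 ± 0.13 (SE, n = 6 each, edgeR adjusted p = 1.24e-09), and Gfap, the filament of astrocytes, by 1.68 ± 0.14. These moved alongside the 16 of 16 astrocyte markers that were higher, whose median was 1.08 and whose sums are given above, and the part of glial RNA in the members' values was not tested.

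Prph, which encodes peripherin, a filament that assembles with the neurofilament chains in peripheral and some central neurons, changed most of the intermediate filaments tested. It was measured at 2.66 CPM at the lowest, 4.26 at the median and 5.81 at the highest in Control libraries. In IFNG libraries it was 27.9, 35.4 and 96.1 CPM, the last in IFNG 3. No library overlapped between groups, and the log2 fold change was 3.40 ± 0.29 (SE, n = 6 each, edgeR adjusted p = 2.15e-08). The mean of Prph in Control, 4.30 ± 1.27 CPM, was below that of Nefh (16.05 ± 3.06), as reads and not per length. In IFNG its mean of 45.7 ± 26.1 CPM was near that of Nefm (45.9 ± 5.13), and it was raised by IFNG 3. The IFNG median of Prph (35.4) was below that of Nefm (46.8).

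**Figure D5:**
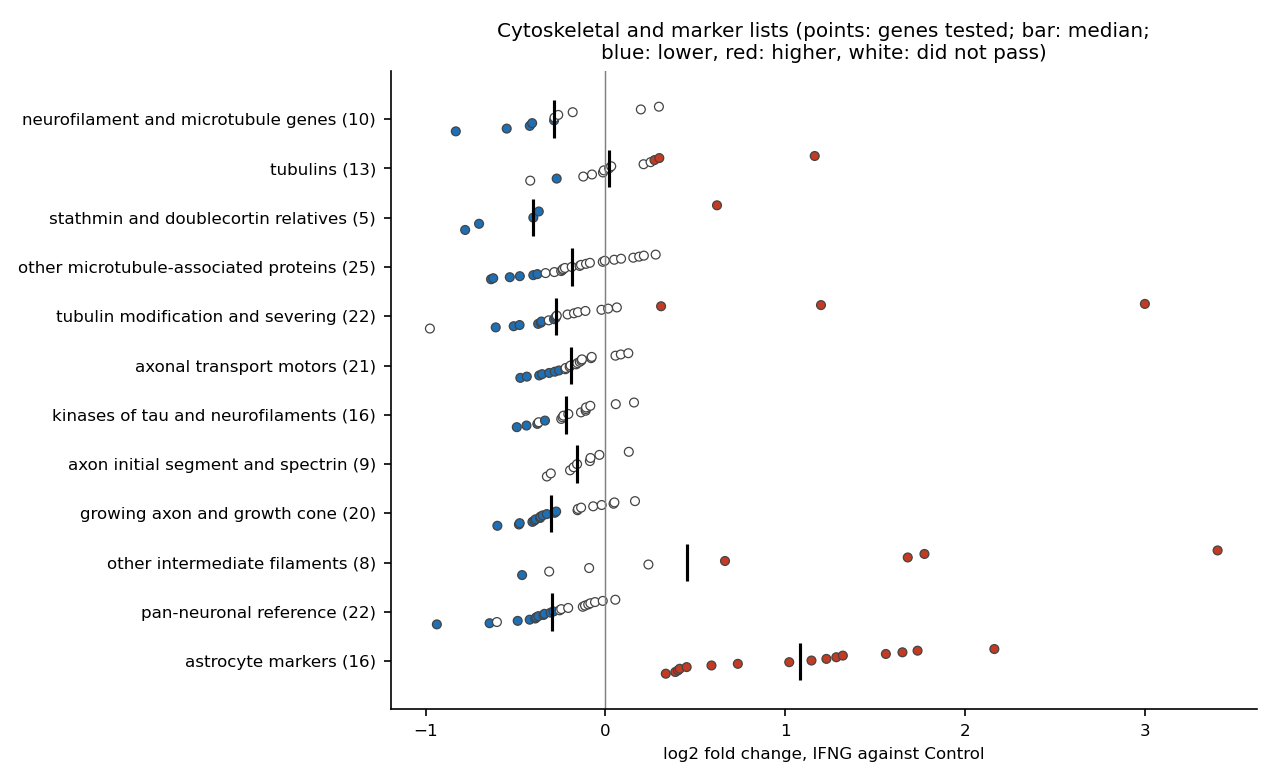
Log2 fold change (IFNG over Control) of every tested gene among the members, the 10 related lists and the astrocyte markers; each point is a gene, blue where lower, red where higher and white where it did not pass, and the bar is the list median. The relatives of stathmin and doublecortin, the growing axon genes and the pan-neuronal reference have medians from -0.40 to -0.30, other intermediate filaments 0.45 and astrocyte markers 1.08.

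Other cell types gave few or mixed signs. Of 9 tested oligodendrocyte lineage markers Pdgfra (-0.65) and Olig2 (-0.35) were lower and Cnp (2.13) was higher, with sums of 299 to 402 CPM in Control and 318 to 362 in IFNG. Microglial markers were near the limit of detection, with 4 of 14 tested, P2ry12 (3.602) and Sall1 (0.69) higher, and sums of 28.1 to 35.8 and 37.3 to 53.7 CPM. For vessels and fibroblasts 6 of 12 were tested, Pdgfrb (1.09) was higher, Cldn5 was at 0 in every library, and sums were 31.2 to 52.5 and 49.2 to 58.3 CPM.

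The genes whose profile over the 12 libraries was most like that of a member were found by the root mean square difference of log2 CPM, each gene centred on its own mean, among 10435 genes. The difference between groups and the value in IFNG 5 are parts of that profile, so both entered the choice of these genes. For Dcx these were Sestd1 (0.13), Prkcb (0.15), Sntg1, Arhgef28 and Dlg2 (0.16 each), all with at least 7328 bases of exon and all lower in IFNG by 0.60 to 0.84 on the log2 scale. For Map2 they were Acap2 (0.067), Ralgapa1 (0.070), Wnk3 (0.082), Srgap1 (0.085) and Dmxl2 (0.087), with 6732 to 13285 bases of exon. For Nefl they were Ifngr2 (0.11), Mmd, Rhou, Myadm (0.12 each) and Smim10l1 (0.13), with 3068 to 4480 bases. The neighbours of Dcx and Map2 thus also have long exons and share the low value in IFNG 5, and none of those of Nefl and Map2 passed the test between groups by edgeR (adjusted p from 0.0572 to 0.325).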

How the data were processed

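The authors deposited raw read counts by gene, as unscaled whole numbers, for 12 poly(A)-enriched libraries (6 Control, 6 IFNG). Per the submitters' processing notes, STAR 2.4 and DESeq2 were used and GRCm39 and mm10 are named, with no role given. The program that counted reads, the strand option and the gene models it used were not given in the sources used here. Symbols, coordinates and exon lengths came from GENCODE M21 (GRCm38), which matched 42548 of 43629 identifiers though reads may have been counted on other gene models. Unmatched identifiers took 0.1001 to 0.113% of each library and were kept in the fit. No pair of libraries agreed within sampling noise.

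The groups were compared by edgeR 4.0.16 under R 4.3.3, using TMM scaling, filterByExpr, two-sided quasi-likelihood tests and Benjamini-Hochberg adjustment at 0.05 over 15241 genes, with no block. CPM uses TMM-scaled totals. The size of each log2 fold change over the root of its F statistic gave its standard error. Log2 ratios add 0.5 to each count. Alternatives were DESeq2 size factors, library totals without a composition factor, totals without the genes that rose, totals over 22 pan-neuronal genes, no filter, a filter of 1 CPM in 6 samples, a replicate block, DESeq2 1.42.0, limma-voom (limma 3.58.1), a test against 1.2-fold, a pseudocount of 5, each library left out, and Control 4 with IFNG 5 left out. Removing each library's trend on exon length was added after seeing the data. The fit was tested on simulated counts.

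The members and lists were chosen with earlier results of these data known. The text names all members, up to 3 genes with the smallest p in each of the 10 related lists with the most abundant that did not pass, the 5 genes most like Dcx, Nefl and Map2 (mean log2 CPM at least 3), and genes of counts of 5 or fewer, the last chosen after their values were seen. The result of 1 gene that this rule selects is not reported here.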

Additional observations from a re-analysis of the deposited data

Results flagged for a closer look

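Among 38 groups of 6 values (10 members, 8 ratios and the length difference, each in 2 groups), 7 had 1 library further from the rest than Dixon's criterion allows (a gap above 0.625 of the range). Chance alone gives about 1 such group in 20 when groups are independent and normally distributed. The 38 groups are not independent, since the ratios are built from the members' own counts, so the 7 cannot be judged against that rate. IFNG 5 accounted for 6 of the 7.

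In CPM, IFNG 5 had 91.3 for Dcx, where the other 5 IFNG libraries had 172 to 209, and 782 for Map2, where they had 1343 to 1478. Among log2 ratios, IFNG 5 was at -2.95 for Dcx/Stmn2 (others -1.94 to -1.61), at -0.041 for Mapt/Map2 (others -0.86 to -0.68) and at -0.31 for Tubb3/Map2 (others -1.21 to -0.98). The difference between long and short genes was -0.55 log2 units in IFNG 5 and 0.01 to 0.17 in the other IFNG libraries. In the Control group, the log2 ratio Nefm/Nefl was -1.94 in Control 4 and -1.61 to -1.48 in the other 5.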

How the results depend on the processing

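The falls of Dcx and Stmn1 kept their direction and their call under every alternative run; Dcx ranged from -0.90 to -0.69 and Stmn1 from -0.61 to -0.51 over the libraries left out. Ina lost its call under the pan-neuronal scaling and against 1.2-fold. Mapt and Stmn2 lost theirs there and under totals without the genes that rose, Mapt also with no filter, and Stmn2 without Control 4, Control 5, IFNG 2 or IFNG 6. With totals without the genes that rose, 750 genes were lower, 3 members were lower and 2 higher, 29 genes of the related lists were lower and 18 higher, and Tuba1a was 0.11. With totals over the pan-neuronal genes, 4287 genes were higher and 416 lower (2184 and 1492 in the reported fit), 2 members were lower and 2 higher, and 9 listed genes were lower and 26 higher. There Tubb3 was 0.034, Tuba1a 0.21, Atat1 0.0063, Cdk5r2 0.083, Sptan1 0.057, Ncam1 0.061, Myadm 0.020 and Acap2 0.0046. Against 1.2-fold, 458 genes, 2 members and 10 listed genes were lower. Tuba1a was 0.015 with no filter and 0.0014 with the 1 CPM filter. Without Control 4 and IFNG 5 together, 4 ratios passed and Mapt/Map2 was -0.097. Leaving out 1 library gave 1924 to 2332 genes higher and 1047 to 1699 lower, 4 to 5 members lower and 0 to 1 higher (Nefh, without Control 2), 39 to 61 listed genes lower and 9 to 14 higher, and 1 to 3 ratios. It also gave Tuba1a from -0.077 to 0.071, Mapt/Map2 from -0.10 to 0.080 and Tubb3/Map2 from -0.0097 to 0.17. The cause of these changes was not tested. The member with the fewest counts, Nefh, had 211 to 676 in a library, and counting error was not separated from the spread between libraries.

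Samples with the same replicate number share only that number: their deviations from the group means correlated at 0.053, 0.091, -0.00094, 0.12, 0.022 and 0.12, and Control libraries 2 and 6 alone correlated best with their own number. With the replicate block 2114 genes were higher and 1563 lower, and 6 members were lower, with Nefl at -0.26 (edgeR adjusted p = 0.0430) added. Of the 8 ratios 0 passed with the block by the paired exact permutation test (smallest adjusted p = 0.0833, for Dcx/Map2, Nefm/Nefl and Nefh/Nefl). These ratios stood at the smallest p that the paired test allows. A ratio at that limit cannot pass after adjustment unless most of the 8 reach it, so this test cannot decide on a single ratio.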
